A study of Mus musculus with 2 samples.

Results

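The ribosomal protein genes described here make the protein parts of the ribosomes of the cytosol and of the mitochondrion. Members were the genes with a probe set whose single gene symbol follows the ribosomal protein pattern, which is Rpl or Rps with a number and at most 1 letter after it, Rplp0, Rplp1, Rplp2 or Rpsa for the cytosolic ribosome and Mrpl or Mrps with a number for the mitochondrial one. This gave 122 of 18193 named genes, 46 cytosolic (24 of the large and 22 of the small subunit) and 76 mitochondrial (47 of the large and 29 of the small subunit). Each gene is represented by its brightest probe set. The choice used symbols and signal, not the difference between the arrays.

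The 2 cultures compared, each measured on 1 Affymetrix mouse array, were T helper 2 (Th2) cells of Ecm1 knockout mice and Th2 cells of wild-type mice. Ecm1 encodes a secreted extracellular matrix protein, and the comparison asks which transcripts differ in Th2 cells that lack it. Both groups were C57BL/6 mice labelled as female and 6 weeks old. In both, splenic cells bound by an anti-CD4 antibody were cultured for 4 days on bound anti-CD3 at 3 µg/ml with soluble anti-CD28 at 2 µg/ml. The medium held antibodies to IFN-γ and to IL-12, each at 10 µg/ml, and IL-4 at 10 ng in a volume that the label gives incompletely. The labels do not say how the knockout allele was made or how many animals stand behind an array. With 1 array per group there are no replicates, so no difference below has a test, an SD over samples or a p-value, and each describes these 2 arrays. In such bulk RNA, fewer cells of a type and less RNA per cell cannot be told apart.

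The cytosolic ribosome translates the messages of nuclear genes, and its proteins are among the most abundantly transcribed genes of a growing lymphocyte. Most of their messages begin with a run of pyrimidines, the TOP element, through which the kinase complex mTORC1 controls their translation together. The mitochondrial ribosome is built from proteins that are encoded in the nucleus and imported, and it translates the few messages of the mitochondrial genome, which encode subunits of the respiratory chain and of ATP synthase.

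Differences are log2 signal of the knockout array minus wild type, after subtraction of the median difference of all measured probe sets (-0.10). A gene counts as measured where its signal reached the array's median, called the floor (65.5 on the knockout array, 69.2 on the wild-type array), on both arrays. Of the 122 members 120 were measured, and they are set beside the 10144 measured genes of the arrays. The fold limits of 1.5 and 2 below are marks of size on this centred scale.

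Several facts of the arrays as a whole bear on every value below. Log2 signals of the arrays correlated at r = 0.940. Ecm1 read 19.3 in knockout cells against 29114.7 in wild-type cells. The Th2 genes Gata3 (5958.6 in knockout cells against 7423.4 in wild-type cells) and Il4 (923.1 in knockout cells against 1233.0 in wild-type cells) were measured on both, as were 5 of 7 Th2 markers, whose differences had no common direction. Il13 was higher in the knockout, at 240.6 in knockout cells against 69.6 in wild-type cells (1.89), and Ccr8 was at 0.56. Sample descriptions name liver, but 0 of 9 hepatocyte markers reached the floor on both arrays, 1 of 4 erythroid markers did, and albumin (Alb) read 24.1 in knockout cells against 4.8 in wild-type cells. The Y-linked Eif2s3y read 2214.4 in knockout cells against 25.0 in wild-type cells, and Xist read 8715.3 in knockout cells against 19739.9 in wild-type cells, although the mice are labelled as female. A difference in sex between the animals cannot be told apart from genotype for any member.

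The promoters of the 2 sets are shown first, since a pyrimidine tract near the start site was found at different shares in them. RefSeq promoters (mouse build GRCm38.p6, 250 bases before to 50 after the annotated start) were matched by symbol for 40 cytosolic genes (48 promoters) and 67 mitochondrial genes (73 promoters). For the 5 brightest cytosolic genes with 1 promoter that holds a pyrimidine tract near its start, the windows run from 60 bases before to 20 after the start, 5′ to 3′ on the transcribed strand. Capitals mark the tract (CTTTCC or CTCTTT, read on the transcribed strand from 20 bases before the start onward) and cores read on either strand, CCGGAAG of the ETS family and GCGCA, any base, GCGC of the factor NRF-1.
Rpl13a, chr7:45128726-45128805, minus strand: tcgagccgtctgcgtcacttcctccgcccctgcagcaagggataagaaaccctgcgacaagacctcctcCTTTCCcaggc
Rpl38, chr11:114668520-114668599, plus strand: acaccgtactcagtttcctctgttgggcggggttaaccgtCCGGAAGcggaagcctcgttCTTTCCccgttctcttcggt
Rps10, chr17:27635225-27635304, minus strand: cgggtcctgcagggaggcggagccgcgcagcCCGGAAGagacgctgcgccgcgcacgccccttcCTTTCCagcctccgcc
Rpl35, chr2:39005112-39005191, minus strand: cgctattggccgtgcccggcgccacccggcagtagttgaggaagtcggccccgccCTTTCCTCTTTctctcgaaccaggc
Rpl4, chr9:64173327-64173406, plus strand: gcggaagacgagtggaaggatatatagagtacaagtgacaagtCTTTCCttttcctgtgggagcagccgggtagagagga

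For the mitochondrial set the windows are of the 5 genes with the highest differences among those that have 1 promoter and hold an ETS or NRF-1 core in the window. Capitals mark the same letters.
Mrpl57, chr14:57826179-57826258, plus strand: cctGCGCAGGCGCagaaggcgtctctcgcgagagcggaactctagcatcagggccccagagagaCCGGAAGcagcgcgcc
Mrpl22, chr11:58171604-58171683, plus strand: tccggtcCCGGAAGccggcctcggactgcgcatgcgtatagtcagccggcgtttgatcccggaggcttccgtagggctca
Mrps27, chr13:99344726-99344805, plus strand: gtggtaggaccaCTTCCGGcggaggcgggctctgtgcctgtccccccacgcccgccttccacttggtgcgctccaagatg
Mrps12, chr7:28741802-28741881, minus strand: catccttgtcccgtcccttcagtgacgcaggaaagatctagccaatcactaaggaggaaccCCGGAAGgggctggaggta
Mrpl3, chr9:105053208-105053287, plus strand: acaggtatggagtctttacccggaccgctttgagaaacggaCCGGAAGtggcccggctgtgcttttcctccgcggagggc

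The tract was sought anywhere from 20 bases before to 50 after the start, so a match need not begin the transcript. It was in 17 of 48 cytosolic promoters (35.4%) and 4 of 73 mitochondrial promoters (5.48%). The shares were 4.76% of the promoters of measured genes and 5.44% of all promoters. The ETS core, on either strand of the 300 bases, was in 20 cytosolic promoters (41.7%) and 25 mitochondrial promoters (34.2%), against 19.0% of the promoters of measured genes and 8.86% of all. The NRF-1 core was in 5 cytosolic promoters (10.4%) and 12 mitochondrial promoters (16.4%), against 10.7% of the promoters of measured genes and 4.60% of all. The pyrimidine tract thus had a higher share in the cytosolic set, whereas the ETS core was frequent in both. The core AAGATGGC of the factor YY1, read on both strands, was in 3 cytosolic promoters (6.25%) and 12 mitochondrial promoters (16.4%), against 4.70% of the promoters of measured genes and 2.75% of all. TATAAA within the 50 bases before the start was in 0 promoters of either set, against 1.36% and 2.63%. A match is a run of letters and no measure of binding, and overlaps between motifs, such as that of both tract forms in Rpl35, were not removed.

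The cytosolic ribosomal proteins had nearly the same signal on both arrays, with a median whose sign depended on the scaling (-0.074 without centring). Most mitochondrial ribosomal proteins were higher in the knockout culture. The median difference was 0.03 over 44 measured cytosolic genes (1.02-fold) and 0.49 over 76 mitochondrial genes (1.41-fold). All 10144 measured genes had a median of 0.04 and an interquartile range from -0.33 to 0.43. The mitochondrial median thus lay 0.46 above the cytosolic one and 0.45 above that of all genes.

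Of the mitochondrial genes 69 of 76 were above 0, as were 26 of 44 cytosolic genes and 53.1% of all measured genes. Of the cytosolic genes 8 were above 0 without centring and 11 after loess, so their count rests on the scaling. At least 1.5-fold higher in the knockout were 30 mitochondrial genes (39.5%) and 3 cytosolic genes, against a background of 18.3%. At least 1.5-fold lower were 0 mitochondrial genes and 1 cytosolic gene, against 13.6%. At the 2-fold mark 6 mitochondrial genes and 1 cytosolic gene were higher, against 7.15%, and 0 mitochondrial genes and 1 cytosolic gene were lower, against 4.45%. The mitochondrial set was therefore shifted by a moderate amount across many genes, with a share past 2-fold close to the background.

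**Figure D1:**
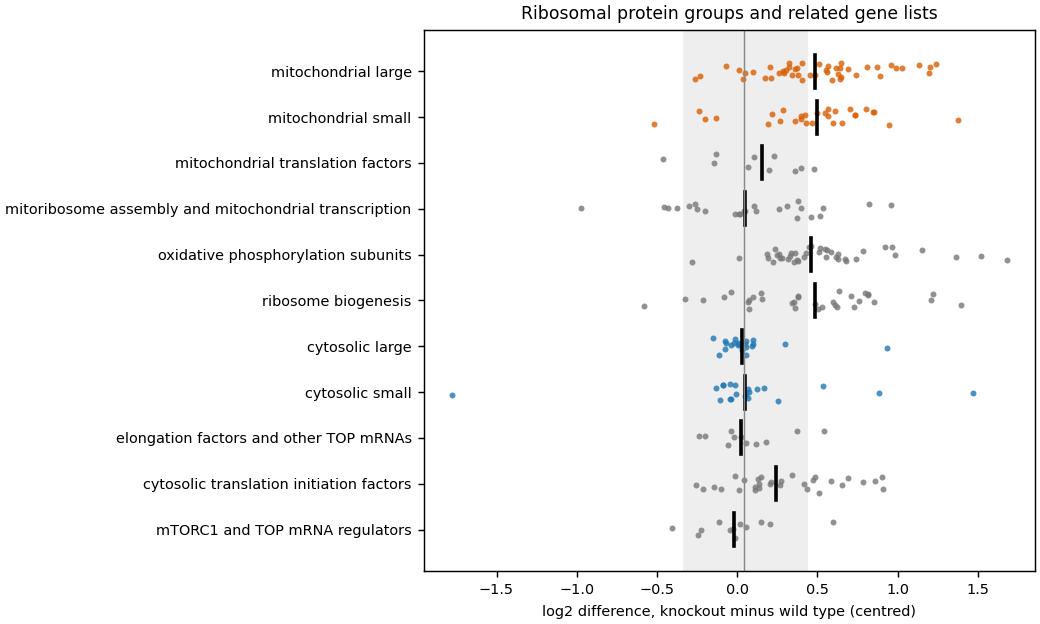
Log2 difference (horizontal axis, knockout minus wild type, centred) of each measured gene of the 4 subunit groups and of related gene lists (rows), with a black bar at each median. The grey line and band are the median (0.04) and interquartile range (-0.33 to 0.43) of all measured genes, and the bars of both mitochondrial groups lie above the band while those of both cytosolic groups lie near 0.

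Signal level differed between the sets. The median cytosolic gene read 32831 in knockout cells against 35173 in wild-type cells, and the median mitochondrial gene read 2090 in knockout cells against 1669 in wild-type cells. Each member was therefore set beside genes of like brightness outside the 2 sets, in 20 bins of mean signal. The mitochondrial genes lay a median of 0.42 above the median of their bin, and 66 of 76 were above it. The same reading is not made for the cytosolic genes, since the brightest bin, which holds most of them, spans signals from 7735 to 45713. They are set below beside other genes of signal 20000 or more. Among 6561 other genes in the brightness range of the mitochondrial set the median difference was 0.04, and 1156 genes passed 1.5-fold upward and 857 downward.

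**Figure D2:**
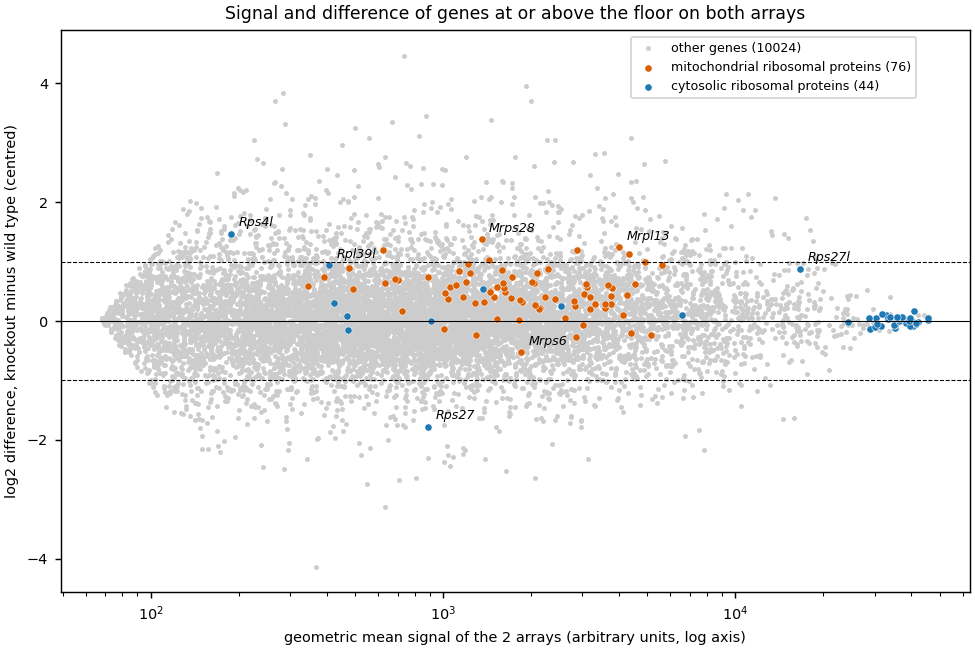
Log2 difference (vertical axis, knockout minus wild type, centred) against geometric mean signal of the arrays (horizontal log axis, arbitrary units) for mitochondrial members, cytosolic members and other measured genes, with dashed lines at 2-fold. Mitochondrial members lie mostly above 0 at intermediate signal, and 33 cytosolic members form a tight group near 0 at the bright end.

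In the mitochondrial large subunit, 44 of 47 genes were above 0, 19 passed 1.5-fold upward and 5 passed 2-fold, with a median of 0.49. Of all measured genes, 53.1% were above 0, 18.3% passed 1.5-fold upward and 7.15% passed 2-fold upward. Mrpl13, whose bacterial counterpart is an early assembly protein of the subunit, read 5942.1 in knockout cells against 2706.0 in wild-type cells (difference 1.24). Mrpl42 read 4208.9 in knockout cells against 1973.6 in wild-type cells (1.20). Mrpl37 read 910.4 in knockout cells against 425.4 in wild-type cells (1.20). Both belong to the proteins that mitochondrial ribosomes have added to the bacterial plan.

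Mrpl57, a small protein of the same kind, read 6191.2 in knockout cells against 3030.7 in wild-type cells (1.13). Mrpl47, the counterpart of bacterial L29 at the exit of the peptide tunnel, read 1978.9 in knockout cells against 1043.7 in wild-type cells (1.03). Mrpl51 came just under the mark at 6692.6 in knockout cells against 3618.1 in wild-type cells (0.99). It was the brightest member of the group on the knockout array. By mean log2 signal over both arrays the 3 brightest were Mrpl24, Mrpl51 and Mrpl18. Mrpl18, which in human cells also takes part in the import of 5S rRNA, read 5419.0 in knockout cells against 3796.0 in wild-type cells (0.62).

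The lowest large-subunit members lay within 1.5-fold. Mrpl9 read 2503.0 in knockout cells against 3230.6 in wild-type cells (-0.27). Mrpl24 read 4585.9 in knockout cells against 5775.6 in wild-type cells (-0.23). Mrpl58, a peptidyl-tRNA hydrolase that frees stalled chains and was built into the ribosome, read 2830.3 in knockout cells against 3189.3 in wild-type cells (-0.07). These 3 were the large-subunit genes below 0, and Mrpl44, which has a fold like that of RNase III, came next at 1766.6 in knockout cells against 1878.2 in wild-type cells (0.01).

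In the small subunit, grouped by symbol, 25 of 29 genes were above 0 and 11 passed 1.5-fold upward. Of all measured genes these shares were 53.1% and 18.3%. The median was 0.50, and 1 gene passed 2-fold upward, against 7.15% of all measured genes. That gene was Mrps28, the member with the largest difference of the mitochondrial set, at 2112.5 in knockout cells against 872.5 in wild-type cells (1.38). Mrps14, near the decoding site, read 7545.7 in knockout cells against 4205.3 in wild-type cells (0.95), and was the brightest mitochondrial member of both subunits in the knockout. Mrps7, which binds the small ribosomal RNA, read 2068.3 in knockout cells against 1232.1 in wild-type cells (0.85). Mrps18b, 1 of 3 relatives of bacterial S18, read 1466.4 in knockout cells against 877.5 in wild-type cells (0.84). Its relatives Mrps18a (0.57) and Mrps18c (0.43) were also above 0, and Mrps18c read 4759.4 in knockout cells against 3790.4 in wild-type cells.

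Below 0 stood Mrps6, Mrps35, Mrps16 and Mrps30. Mrps6 had the lowest difference of the mitochondrial set, with 1494.9 in knockout cells against 2297.6 in wild-type cells (-0.52). Mrps35 read 1152.4 in knockout cells against 1461.9 in wild-type cells (-0.24). Mrps16, among the 3 brightest of its subunit, read 3951.5 in knockout cells against 4870.4 in wild-type cells (-0.20). Mrps30, placed by structures in the large subunit despite its name, read 931.4 in knockout cells against 1097.0 in wild-type cells (-0.13). None of these 4 reached 1.5-fold.

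**Figure D3:**
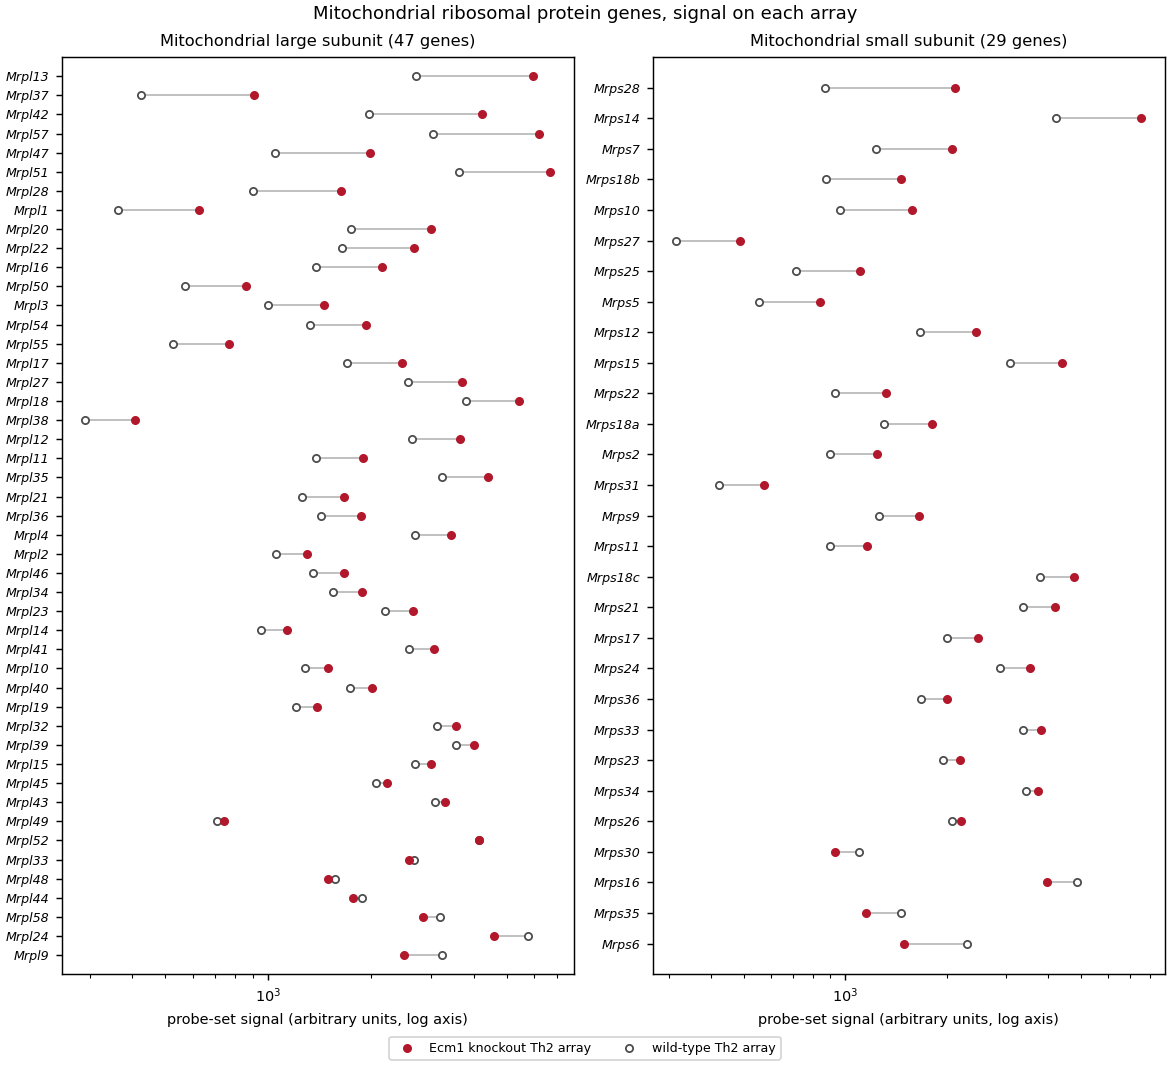
Probe-set signal (horizontal log axis, arbitrary units) of each mitochondrial ribosomal protein gene (rows, highest difference at the top) on the knockout array (filled) and on the wild-type array (open), large subunit left and small subunit right. The knockout point lies right of the wild-type point in most rows, and the exceptions, such as Mrpl9 and Mrps6, stand at the bottom.

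The size of the difference was also compared by the number in the gene symbol. Members numbered within the bacterial series (up to L36 and S21) were 43 genes with a median of 0.55, and the 33 members numbered above it had a median of 0.36. The 6 genes past 2-fold were a share close to the background of 7.15%. Of these, 5 carried the higher numbers and Mrpl13 alone a bacterial number. At least 1.5-fold higher were 17 of the 43 (39.5%) and 13 of the 33 (39.4%), against 18.3% of all measured genes. Numbering is not kinship with bacterial ribosomes, since Mrpl47, the counterpart of bacterial L29, counts here with the higher numbers. Members were not sorted by counterpart, so the counts do not compare bacterial with added proteins.

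Mitochondrial ribosomal proteins whose symbols do not follow the pattern were read separately. Gadd45gip1 (CRIF1), at the tunnel exit of the large subunit, read 1930.3 in knockout cells against 1007.4 in wild-type cells (1.04). Chchd1 of the small subunit read 5135.4 in knockout cells against 3382.0 in wild-type cells (0.71). The pentatricopeptide protein Ptcd3 (0.14) and the GTP-binding Dap3 (0.04) were close to 0.

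The cytosolic set had an interquartile range of 0.123, against 0.765 for all measured genes. Within 1.5-fold lay 40 of 44 cytosolic genes, against 68.1% of all measured genes. Among genes of signal 20000 or more the interquartile range was 0.0998 for 33 cytosolic genes and 0.270 for 60 other genes. The large subunit had a median of 0.03 (23 measured genes) and the small subunit of 0.05 (21 measured genes). Rps29, a zinc-binding protein, was the brightest of all named genes on the knockout array, at 44947.4 in knockout cells against 46491.1 in wild-type cells (0.05). Rpl13a, which outside the ribosome belongs to the GAIT complex, read 44169.0 in knockout cells against 46875.2 in wild-type cells (0.02). Rpl38 read 40316.7 in knockout cells against 43820.0 in wild-type cells (-0.02). Rplp2, of the stalk that recruits elongation factors, read 39008.7 in knockout cells against 42270.2 in wild-type cells (-0.01).

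Among small-subunit genes of like brightness, Rps20 read 41844.3 in knockout cells against 40098.6 in wild-type cells (0.16). Rpsa, also known as a laminin receptor, read 39597.0 in knockout cells against 43733.7 in wild-type cells (-0.04). Rpsa and the next 3 genes were lower in deposited signal in knockout cells and close to 0 once centred. Rps18 read 37941.9 in knockout cells against 43339.2 in wild-type cells (-0.09), and Rps15 read 27926.1 in knockout cells against 32272.3 in wild-type cells (-0.11). Rps9 read 26712.7 in knockout cells against 31384.8 in wild-type cells (-0.13). In the large subunit the lowest differences were those of Rpl12 (-0.15), Rpl7a (-0.12), Rpl11 (-0.08) and Rpl27 (-0.07). Rpl11 is known as an inhibitor of the p53 ligase Mdm2.

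Of the cytosolic genes, 33 had a mean signal of at least 20000, a limit chosen after the data were seen. Their median was 0.00 and they ran from -0.13 (Rps9) to 0.16 (Rps20), all within 1.5-fold. As many as 56 of 60 other genes of at least that signal were within 1.5-fold too, with a median of -0.02 and a range from -0.83 to 0.97. Brightness was not matched within this limit. The median signal of the 60 was 25346 in knockout cells and 26316 in wild-type cells, against 35121 and 37615 for the 33. Among the 60 are the ribosomal protein genes Rps3a1 and Fau. The brightest value of any probe set was 44947.4 in knockout cells against 50816.8 in wild-type cells. Whether signals this close to the upper end still follow transcript amount was not tested. The narrow spread of the cytosolic genes therefore describes signal and need not mean equal transcript amounts.

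**Figure D4:**
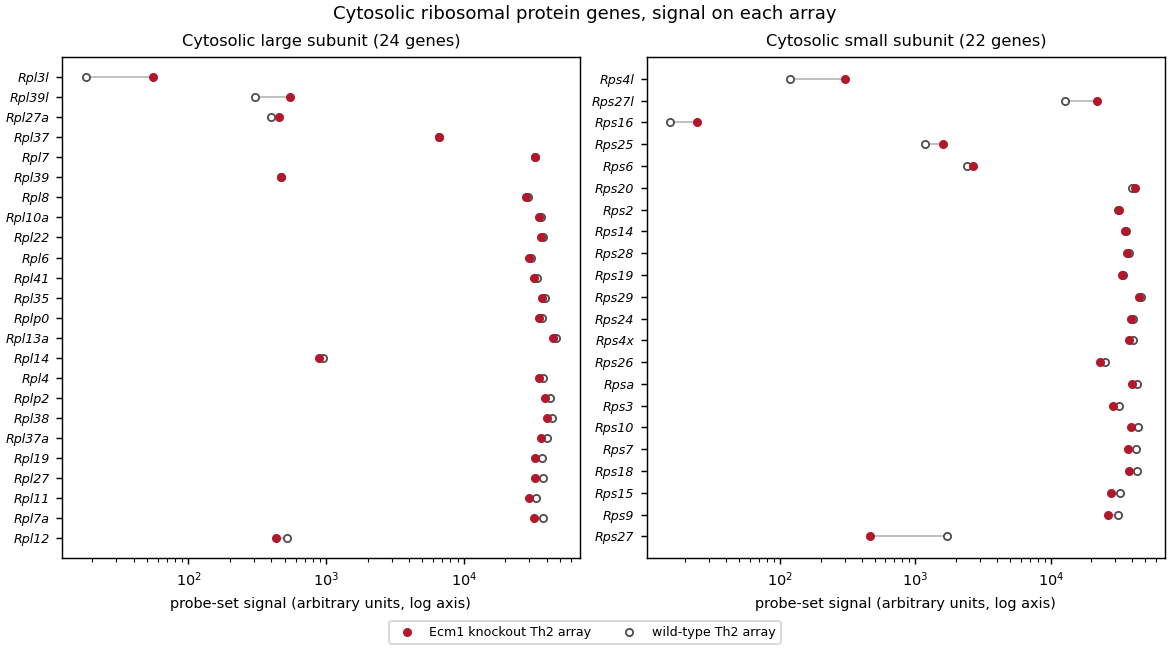
Probe-set signal (horizontal log axis, arbitrary units) of each cytosolic ribosomal protein gene (rows, highest difference at the top) on the knockout array (filled) and on the wild-type array (open), large subunit left and small subunit right. Most pairs overlap above 20000, and the separated pairs are dim probe sets and the paralogues Rps27l, Rps4l and Rpl39l.

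The remaining 13 cytosolic genes were dimmer by their single-symbol probe sets, and all cytosolic genes past 1.5-fold were among them. Rps27, a zinc-finger protein, read 463.7 in knockout cells against 1707.1 in wild-type cells (-1.78). Rps25, which serves translation from internal entry sites, read 1587.4 in knockout cells against 1175.8 in wild-type cells (0.54). Rps6, the substrate of the S6 kinases, read 2680.1 in knockout cells against 2408.7 in wild-type cells (0.26). Rpl27a read 452.4 in knockout cells against 395.0 in wild-type cells (0.30), and Rpl37 read 6563.7 in knockout cells against 6570.1 in wild-type cells (0.10). Rps16 was below the floor on both arrays, at 24.3 in knockout cells against 15.5 in wild-type cells, and has no fold.

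For 9 of these 13 genes the annotation also joined the symbol with others on brighter probe sets. The brightest such probe set of each gene read between 26130.5 and 40326.2 in knockout cells, against 25510.2 to 45135.7 in wild-type cells. No difference of a single gene is taken from them. Of 110 probe sets that carried a cytosolic symbol among several, 105 were measured, with a median of -0.01, and 102 lay within 1.5-fold and 0 past 2-fold. The large difference of Rps27 thus rested on 1 dim probe set, and whether that probe set reads the main transcript was not tested. The 1 probe set that listed Rps27 among several symbols read 32704.9 in knockout cells against 38410.6 in wild-type cells.

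The 4 genes of the cytosolic pattern whose symbol ends in l are paralogues of a core member. Rps27l, which p53 is known to induce, read 21858.4 in knockout cells against 12726.3 in wild-type cells (0.88), and its 3 measured probe sets ran from 0.88 to 1.07. Rpl39l, known for its expression in male germ cells, read 543.6 in knockout cells against 305.5 in wild-type cells (0.93). Rps4l, the autosomal relative of Rps4x, read 303.5 in knockout cells against 117.5 in wild-type cells (1.47). Rpl3l, a form of striated muscle, was below the floor on both arrays (55.3 in knockout cells against 17.9 in wild-type cells). All 3 measured paralogues were at least 1.5-fold higher, against 18.3% of all measured genes. These are the 3 cytosolic genes counted above as such. Rps4l and Rpl39l rest on 1 probe set each, of low signal. With the floor at the 70th percentile, 1 cytosolic gene was at least 1.5-fold higher.

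Their counterparts were lower or near 0, and the lower one, Rps27, rests on the dim probe set given above. Rps4x read 37735.3 in knockout cells against 40693.7 in wild-type cells (-0.01), and Rpl39 read 468.0 in knockout cells against 471.6 in wild-type cells (0.09). Rps4x and Rpl39 are also the X-linked members. Near-identical copies can share probes, so values of single paralogues are uncertain. Ribosomal proteins outside the symbol pattern included Fau, a fusion whose tail is Rps30, at 30434.1 in knockout cells against 36721.2 in wild-type cells (-0.17). Rpl22l1 read 17431.5 in knockout cells against 21233.9 in wild-type cells (-0.18), while its counterpart Rpl22, which alpha-beta T cell development needs, was at 0.05. Rpl7l1, a nucleolar relative of Rpl7, read 2132.4 in knockout cells against 1719.0 in wild-type cells (0.41), and Rpl7 was at 0.10. Rps3a1, named after its value was seen, was at 0.10.

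Genes with a second measured probe set give the only internal measure of error. The technical SD from such pairs, on the log2 scale, was 0.168 in 19 cytosolic genes, 0.357 in 30 mitochondrial genes and 0.36 in all 4657 genes with a pair. It leaves out animal, culture and array error. In the mitochondrial pairs the second probe set had a median of 0.36, against 0.50 for the brightest, and was above 0 in 25 of 30 genes. Over all genes with a pair the second probe set was above 0 in 2418 of 4657. Signs matched in 27 of the 30 mitochondrial and 15 of the 19 cytosolic pairs, and in 3445 of the 4657 pairs of all genes.

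The probe sets of single genes often differed about the fold marks. At least 1.5-fold higher were 12 of the 30 mitochondrial genes by the brightest probe set and 7 by the second, with 4 by both. Of all 4657 genes with a pair these were 824, 877 and 503. Only Mrpl13 was past 2-fold by both (1.24 and 1.45). The other 5 mitochondrial genes past 2-fold had 1 measured probe set each. Mrpl27 (0.63 and 1.57), Mrpl49 (0.17 and 1.20) and Mrpl11 (0.56 and 1.20) were past 2-fold by the second probe set alone.

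Probe sets of opposite sign at least 2-fold apart were found in 7 members, so the direction of these genes is uncertain. Their measured probe sets ran from -0.87 to 0.42 in Mrps21, from -0.36 to 0.81 in Mrps10, from -0.41 to 0.70 in Mrps5, from -0.69 to 0.65 in Mrpl3 and from -0.59 to 0.42 in Mrpl52. Among cytosolic genes they ran from -1.48 to 0.05 in Rpl22 and from -0.32 to 0.83 in Rps9. Mrps6 was below 0 by both of its probe sets (-0.52 and -0.37).

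**Figure D5:**
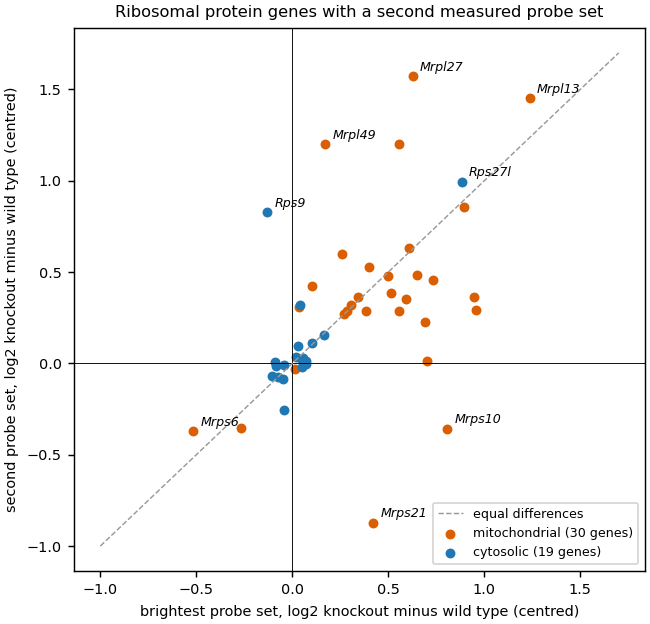
Log2 difference (knockout minus wild type, centred) of the second brightest probe set (vertical axis) against that of the brightest (horizontal axis) for 30 mitochondrial and 19 cytosolic genes with both measured, with a dashed line of equality. Most mitochondrial points lie right of and above 0, and Mrps10, Mrps21 and Rps9 have probe sets of opposite sign.

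Lists of genes that act with the ribosomes were read beside them. As background for the counts in this paragraph, 18.3% of all measured genes passed 1.5-fold upward and 13.6% downward. Mitochondrial translation factors had a median of 0.15 over 10 measured genes, with 0 past 1.5-fold either way. Their highest were the elongation factor Tsfm (0.48) and Gfm1 (0.40), and their lowest the membrane insertase Oxa1l (-0.46) and the release factor relative Mtrf1l (-0.14). Genes of mitoribosome assembly and mitochondrial transcription had a median of 0.05 over 25 of 26 genes, with 2 at least 1.5-fold higher and 1 lower. They ran from the GTPase Mtg2 (-0.97) and the RNA methyltransferase Nsun4 (-0.46) to the methyltransferases Mrm1 (0.82) and Tfb1m (0.96). In these lists the medians stood below that of the mitochondrial ribosomal proteins.

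The nuclear-encoded subunits of oxidative phosphorylation had a median of 0.46 over 41 genes, with 14 past 1.5-fold upward, 4 past 2-fold upward and 0 past 1.5-fold downward, where all measured genes had 18.3%, 7.15% and 13.6%. The ATP synthase subunit gene Atp5g1 read 6496.5 in knockout cells against 2175.7 in wild-type cells (1.68), and the complex III gene Uqcrq read 8275.6 in knockout cells against 3096.2 in wild-type cells (1.52). Ndufa6 of complex I (-0.28) and Sdha of complex II (0.01) were the lowest. Genes of ribosome biogenesis, a list that also holds the transcription factor Myc, had a median of 0.49 over 33 genes. At least 1.5-fold higher were 14 of them, against 18.3% of all measured genes, and 0 were lower, against 13.6%. Gnl3 (nucleostemin) read 2991.3 in knockout cells against 1221.9 in wild-type cells (1.39), and Nolc1 read 1481.5 in knockout cells against 683.8 in wild-type cells (1.22). Wdr12 (-0.58) and Myc (-0.32) were the lowest. The ribosome biogenesis and oxidative phosphorylation medians were thus close to that of the mitochondrial ribosomal proteins (0.49).

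Genes that share the TOP element with cytosolic ribosomal proteins had a median near 0, with single genes on either side. The counts that follow stand beside 18.3% of all measured genes at least 1.5-fold higher and 13.6% lower. Elongation factors and other TOP messages had a median of 0.02 over 11 genes with 0 past 1.5-fold, from the nucleolar protein Npm1 (-0.24) and Btf3 (-0.20) to Eef1d (0.37) and Nap1l1 (0.54). Genes of mTORC1 and its TOP regulators had a median of -0.02 over 12 genes, and the translation repressor Eif4ebp1 (0.60) alone was past 1.5-fold. The next highest was Mtor (0.20), and the lowest were Deptor (-0.41) and Tsc1 (-0.24). Cytosolic initiation factors had a median of 0.24 over 30 genes, from Eif3f (-0.25) and Eif4a2 (-0.21) to Eif1a (0.90) and Eif1ax (0.91). At least 1.5-fold higher were 7 of them (23.3%), near the share of all measured genes, and 0 were lower. Above 0 were 25 of the 30 initiation factors, against 53.1% of all measured genes.

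Within each set the promoter motifs were also set beside the differences. Mitochondrial genes with an ETS core had a median of 0.51 (25 genes) and those without it 0.49 (42 genes). Those with the NRF-1 core had a median of 0.33 (12 genes) and those without it 0.55 (55 genes). With the YY1 core the order was the other way, at 0.56 (12 genes) and 0.43 without it (55 genes). The 4 mitochondrial genes with a pyrimidine tract had a median of 0.04, against 0.55 for the 63 without it. Cytosolic genes with the tract had a median of 0.02 (17 genes) and those without it -0.01 (21 genes). These are descriptions over few genes.

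Markers of other cell types and of cell state differed between the arrays together with the mitochondrial set. For the counts in this paragraph, the background was 18.3% of all measured genes past 1.5-fold upward, 7.15% past 2-fold upward and 4.45% past 2-fold downward. Proliferation markers had a median of 0.74, with 8 of 10 measured genes at least 1.5-fold higher and a summed signal of 92281 in knockout cells against 56458 in wild-type cells. Pcna read 20337.3 in knockout cells against 13861.4 in wild-type cells, and Mki67 read 13663.7 in knockout cells against 8302.0 in wild-type cells. Plasma cell markers summed to 101202 in knockout cells against 44850 in wild-type cells, with 6 of 8 measured genes at least 2-fold higher, among them Mzb1 (1.53) and Jchain (1.06). B cell markers summed to 34391 in knockout cells against 17009 in wild-type cells (4 of 8 at least 2-fold higher), with Pax5 below the floor on both arrays. Macrophage markers summed to 6811 in knockout cells against 1338 in wild-type cells (4 of 7 at least 2-fold higher), with Itgam below the floor on both arrays. T cell markers summed to 56334 in knockout cells against 111399 in wild-type cells, with 6 of 11 at least 2-fold lower. Cd3d read 15919.3 in knockout cells against 24487.0 in wild-type cells. CD8 T cell markers summed to 15877 in knockout cells against 22818 in wild-type cells, with 3 of 7 at least 2-fold lower. Most of this sum was Gzmb, at 14331.3 in knockout cells against 19512.5 in wild-type cells, and Eomes was above 0 (0.35). The part of these markers in the ribosomal protein differences was not tested.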

How the data were processed

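RNA of Th2 cells of Ecm1 knockout and wild-type mice was hybridised to 1 array each, from 3 µg of total RNA per the labels' protocols. The deposited values are linear probe-set intensity, summarised by the authors with software not named in the labels used here. The mean of the central 96% of probe sets is 500.004 on both arrays, so the values were globally scaled before deposit. Such scaling sets the level of each array from its own signals. No detection calls were used, and the number of arrays limits the precision.

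Of 45101 probe sets, 34945 had 1 symbol in the platform annotation, 932 had several, 9160 had none and 64 were controls. Genes were named from probe sets with 1 symbol. Signals were taken to log2, differences were centred on 20834 probe sets at or above the array median on both arrays, and the brightest probe set stood for a gene. Python 3.11.15, pandas 2.3.3, numpy 2.4.6 and statsmodels 0.14.6 (loess, span 0.3) were used, and the procedure was checked on simulated data. The technical SD is the SD of the difference between a gene's probe sets divided by the square root of 2. The RefSeq gene table held all 122 members, and promoters came from the RefSeq promoter table of GRCm38.p6.

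The text names, per subunit group, the 4 highest and 4 lowest differences, the 3 brightest members, members past 2-fold, below the floor or with discordant probe sets, X-linked members and paralogues. It also names the 2 highest and 2 lowest genes of related lists and up to 3 bright markers per marker list. Genes named otherwise, such as Alb, Mrps30 in its structural place, Mrps18a and those of the array checks, were chosen after their values were seen. The members and lists were chosen with earlier results of these data known. Alternatives were no centring, centring on named genes, quantile normalization, loess, no floor, a floor at the 70th percentile, the mean of probe sets, no _x_at, _s_at and _a_at probe sets, no paralogues ending in l and, added after the data were seen, cytosolic genes of signal 20000 or more.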

Additional observations from a re-analysis of the deposited data

How the results depend on the processing

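The mitochondrial median stayed above 0 and above the cytosolic median under every alternative run. It was 0.39 without centring, 0.45 centred on named genes, 0.41 after quantile normalization, 0.44 after loess and 0.37 with probe sets averaged. The cytosolic minus mitochondrial median of -0.46 was -0.41 after quantile normalization and -0.34 with probe sets averaged. Mitochondrial genes at least 1.5-fold higher numbered 20 to 30 over the alternatives and those at least 2-fold higher 4 to 6, and 1 was at least 1.5-fold lower without centring and after quantile normalization.

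The cytosolic median changed sign and stayed near 0. It was -0.074 without centring, -0.012 centred on named genes, -0.054 after loess, -0.0048 with the floor at the 70th percentile and -0.020 without _x_at, _s_at and _a_at probe sets. Cytosolic genes above 0 were 8 of 44 without centring, 11 of 44 after loess, 10 of 21 without those probe sets and 17 of 33 among genes of signal 20000 or more. Those at least 1.5-fold higher were 5 without a floor, 1 with the higher floor, 0 without paralogues and 0 among the bright genes, and those at least 2-fold higher 2, 0, 0 and 0. Among the bright genes 0 lay past 1.5-fold or 2-fold downward.

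The large cytosolic subunit was at -0.074 without centring, -0.012 centred on named genes, -0.00082 after quantile normalization, -0.057 after loess and -0.0048 with the higher floor. The small one was at -0.053 without centring, -0.035 after loess, -0.0060 with the higher floor, -0.040 without those probe sets, -0.0059 without paralogues and -0.0095 among the bright genes. All genes had a median of -0.062 without centring. The causes were not tested.

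Mrpl47 left the 2-fold mark under 6 alternatives (lowest 0.49, with probe sets averaged). Mrpl57 did so after quantile normalization (0.96), after loess and with probe sets averaged (0.27), where Mrpl13 (0.68) and Mrpl42 (0.88) also did. Averaging takes in signals below the floor. Mrpl27 (1.10) and Mrps31 (1.12) passed 2-fold with probe sets averaged, and Mrpl11 (1.20) without the named probe-set types. Of members, 20 moved by more than the technical SD with probe sets averaged, 3 without those probe-set types and 0 under the other alternatives. No paired analysis was possible because there was only 1 array for each genotype.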
